A study of Mus musculus with 19 samples.

Results

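The comparison sets bone marrow-derived macrophages of donor origin against resident host microglia, both sorted from the brains of mice with chronic graft-versus-host disease (GVHD). Its members are the 6 GVHD donor libraries and the 4 GVHD host libraries, 10 of the 19 samples of the series, chosen by their labels and not by any measured value. Every recipient had 1100 cGy of total-body irradiation in split doses and 5000000 T-cell-depleted (TCD) marrow cells. The GVHD mice were also given 500000 splenic T cells, and cells were sorted on day 70. A further 3 libraries held host microglia from TCD mice, which had marrow and no added T cells. They entered the model for its estimates of spread and of the covariate described below, and can thus bear on the fold changes. Their own values are given below only where stated. Strain, sex, age, the sort gate and the number of animals per library are not given in the sources used here. If the donors and hosts were of different strains, strain and cell type cannot be told apart in this comparison. The same holds for origin, since no donor-derived microglia and no host-derived macrophages were sorted.

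Microglia settle in the brain before birth and renew themselves there. Their identity is known to depend on TGF-beta signalling and on the transcription factor Sall1, and they carry purinergic receptors such as P2ry12 that sense nucleotides from damaged cells. Marrow-derived macrophages descend from blood monocytes, can enter the brain after irradiation and transplantation, and are known to keep a different set of genes from microglia even after long residence.

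The 10 libraries held an estimated 8455467 to 35844769 reads each, and their normalised counts summed to 890564.5 to 1090630.5. The labels number the libraries but do not say that they came from separate animals, so the p-values measure the spread between these libraries, which may be technical in part. Each library pools many cells, and fewer expressing cells and less RNA per cell cannot be told apart. The titles carry an API number, API183 for donor library 1, host library 1 and TCD host library 1 and API197 for the other libraries, and it was a covariate in the model. What the API number stands for is not stated. The first principal component of the 13 sorted libraries held 59.5% of the variance and separated donor from host cells. The second held 19.2% and set donor libraries 1 and 5 and TCD host library 1 apart from all others. In those 3 libraries values rose with the GC content of the transcript, by 0.290, 0.301 and 0.355 on the log2 scale per 10 points of GC. The other donor libraries had slopes of -0.173 to -0.111 and the GVHD host libraries of -0.084 to 0.020. Results are given with all 10 libraries, and the numbers of genes called were also computed without donor libraries 1 and 5. TCD host library 1 also carries Syn in place of TCD in its description, and what Syn stands for is not stated.

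Of 13086 genes tested, 5052 (38.6%) were called at an adjusted p under 0.05, and 2533 (19.4%) were called higher in donor macrophages and 2519 (19.2%) lower. Without donor libraries 1 and 5 the counts were 2523 and 2411. Calls were 50.1% on the higher side, and 33.5% (1830 higher and 3640 lower) once every library was rescaled to the same total, which moved the median of all genes by -0.16. Of the called genes, 1126 (8.6% of those tested) had an estimate at least 2-fold higher and 1007 (7.7%) at least 2-fold lower. For 3561 called genes (27.2%) no donor library overlapped any host library. Among the same calls, that number was 4077 without donor libraries 1 and 5 and 4294 on the libraries of API197 alone. The calls were not made anew for these 2 numbers, and leaving libraries out of the overlap check can only raise them. The median log2 fold change over all tested genes was 0.04. Fold changes are differences of log2(normalised count + 1), donor minus host, and therefore understate the change of genes with low values. All counts of list members below are to be read against the shares of 19.4% and 19.2%.

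The labelled cell types were checked on 5 marker genes, and all 5 separated the groups as the labels say. Clec12a (ENSMUSG00000053063, chromosome 6, 129342691 to 129365303 on GRCm38), an inhibitory C-type lectin of blood-derived myeloid cells, had normalised counts of 247, 354, 347, 373, 208 and 318 in donor libraries 1 to 6. Host libraries 1 to 4 held 9.99, 3.79, 3.06 and 5.45, so the lowest donor library lay far above the highest host library. The log2 fold change was 5.67 ± 0.28 (standard error, adjusted p = 1.48e-08). Ms4a7 (ENSMUSG00000024672, chromosome 19, 11321039 to 11336146), a membrane protein of macrophages, read 684 to 1031 (median 854) in the donor libraries and 35.8, 14.8, 16 and 21.7 in host libraries 1 to 4, a log2 fold change of 5.35 ± 0.32 (standard error, adjusted p = 5.93e-08). Apoe (ENSMUSG00000002985, chromosome 7, 19696109 to 19699188), which encodes the lipid carrier apolipoprotein E, read 55560 to 91740 (median 66450) in the donor libraries and 5591, 2673, 3233 and 3906 in host libraries 1 to 4, with a log2 fold change of 4.24 ± 0.22 (standard error, adjusted p = 2.27e-08), and of 3.30 under quantile normalisation. Host library 1 was the highest host library for these 3 genes, and for many but not all of the genes below that were higher in donor cells. Whether some cells of 1 sorted population were present in the other was not tested. Low values of a gene in a group therefore need not come from the labelled cell type. P2ry12 (ENSMUSG00000036353, chromosome 3, 59216272 to 59262871) read 682 to 1498 (median 1187) in the donor libraries and 11140, 13370, 14140 and 13180 in host libraries 1 to 4, a log2 fold change of -3.56 ± 0.14 (standard error, adjusted p = 6.08e-09). Sall1 (ENSMUSG00000031665, chromosome 8, 89027235 to 89044162) read 3.33 to 14.4 (median 9.79) in the donor libraries and 297, 269.6, 286 and 263 in host libraries 1 to 4, and its log2 fold change was -4.87 ± 0.30 (standard error, adjusted p = 8.48e-08). Both microglial markers were thus lower in every donor library than in any host library, but P2ry12 remained among the detected genes in all of them. Within the API183 pair the log2 differences were 4.50 for Clec12a, 4.34 for Ms4a7, 3.53 for Apoe, -4.03 for P2ry12 and -5.17 for Sall1. The libraries of API197 gave 5.97, 5.59, 4.43, -3.44 and -4.81. Of the 2141 genes called higher within API197, 1985 (92.7%) were also higher in the API183 pair, as were 52.6% of all tested genes. Of the 2219 called lower, 2122 (95.6%) were lower there.

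**Figure D1:**
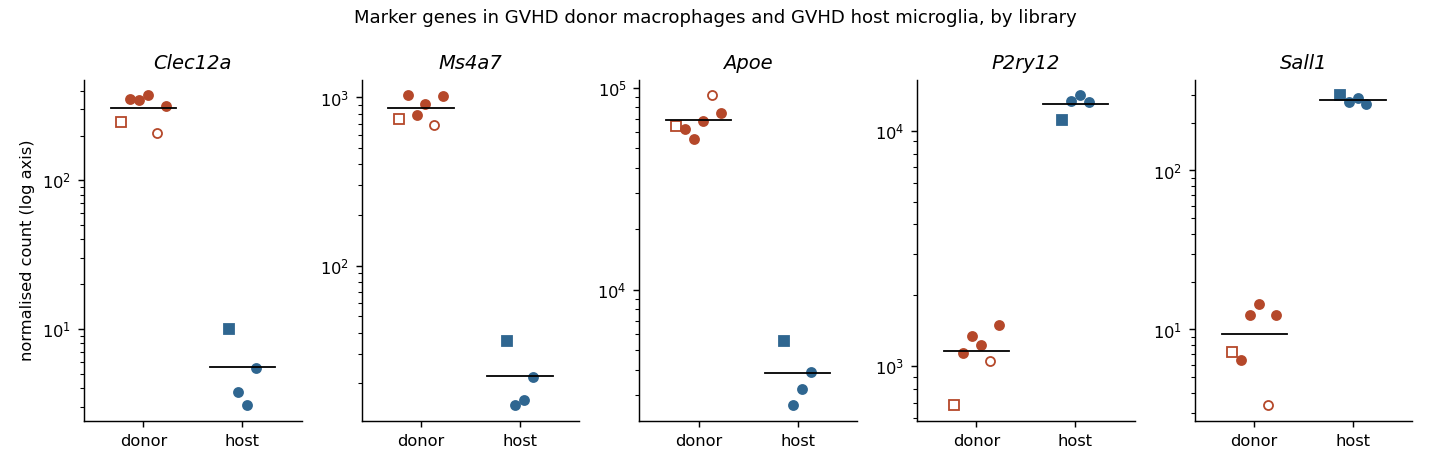
Normalised counts of the 5 marker genes in each library (log axes), with donor macrophages in red, host microglia in blue and the group mean as a black line. Squares are libraries of API183, and open symbols are donor libraries 1 and 5. The groups do not overlap for any of the 5 genes.

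The 20 named genes with the largest differences on the donor side included receptors, enzymes and secreted proteins. Plbd1, a phospholipase B-like protein of granules, was first, with 189 to 622 (median 417) in the donor libraries and 15.8, 4.3, 1.59 and 4.65 in host libraries 1 to 4 and a log2 fold change of 6.04 ± 0.38 (standard error, adjusted p = 9.43e-08). Gdf3, a growth factor of the TGF-beta superfamily, read 89.1 to 222 (median 112) in the donor libraries and 2.69, 0.822, 1.59 and 0.454 in host libraries 1 to 4, a log2 fold change of 5.83 ± 0.38 (standard error, adjusted p = 1.07e-07). Tlr8, an endosomal receptor for single-stranded RNA, read 165 to 211 (median 196) in the donor libraries and 6.67, 2.4, 1.21 and 1.93 in host libraries 1 to 4, a log2 fold change of 5.81 ± 0.24 (standard error, adjusted p = 7.05e-09). The others, with their log2 fold changes, were F13a1 (5.88), Mgl2 (5.76), Cd93 (5.72), Klra2 (5.68), Sirpb1c (5.64), Gpr141 (5.37), Clec10a (5.34), Sirpb1b (5.27), Serpinb8 (5.22), Ifi203 (5.17), Pf4 (5.17), Mndal (5.15), Cyp4f18 (5.11), Mrc1 (5.10) and Acp5 (5.09), besides Clec12a and Ms4a7. Without donor libraries 1 and 5 the log2 fold changes of F13a1, Mgl2 and Gpr141 were 6.91, 6.68 and 6.27. Cyp4f18, an enzyme that inactivates leukotriene B4, read 368 to 511 (median 384) in the donor libraries and 18.8, 9.48, 10.6 and 8.4 in host libraries 1 to 4. Acp5, the tartrate-resistant acid phosphatase known from osteoclasts, read 111 to 163 (median 126) in the donor libraries and 10.4, 1.71, 1.21 and 2.61 in host libraries 1 to 4. Near-identical genes such as Sirpb1a, Sirpb1b and Sirpb1c, or the Ifi200 family with Ifi203 and Mndal, share reads that the authors' counting divided, so their separate values are uncertain.

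On the host side the largest difference among named genes, which leave out predicted genes, was in Ccr6, the receptor for the chemokine Ccl20. It read 1.23 to 11.1 (median 5.54) in the donor libraries and 206, 205, 219 and 185 in host libraries 1 to 4, and its log2 fold change was -5.42 ± 0.82 (standard error, adjusted p = 0.000193). Host microglia of the TCD mice read 2.12, 224 and 282 in TCD host libraries 1 to 3, so TCD host library 1 lay in the range of the donor macrophages. Without that library in the model the log2 fold change of Ccr6 was -5.28. Slc2a5, a fructose transporter, read 9.33 to 31.8 (median 21.1) in the donor libraries and 421, 533, 598 and 534 in host libraries 1 to 4, a log2 fold change of -4.73 ± 0.29 (standard error, adjusted p = 7.42e-08). Adgrg1, an adhesion G protein-coupled receptor that marks yolk sac-derived microglia, read 7.37 to 26.5 (median 20.2) in the donor libraries and 451, 389.7, 449 and 323 in host libraries 1 to 4, a log2 fold change of -4.38 ± 0.32 (standard error, adjusted p = 3.1e-07). Sparc, a matrix-binding glycoprotein, read 50.9 to 340.3 (median 202) in the donor libraries and 2152, 3513, 3339 and 3032 in host libraries 1 to 4, a log2 fold change of -4.37 ± 0.40 (standard error, adjusted p = 2.38e-06). The others were Csmd3 (-5.12), Upk1b (-5.09), Nav3 (-5.02), Sall3 (-4.87), Ecscr (-4.72), Adamts1 (-4.54), Sgce (-4.45), H2-Ea-ps (-4.45), Naalad2 (-4.44), Mlxipl (-4.44), Ccdc80 (-4.39), Hspb3 (-4.28), Eva1a (-4.23), Jam2 (-4.22) and Plpp1 (-4.22), besides Sall1. Mlxipl encodes the glucose-responsive transcription factor ChREBP and read 1.19 to 8.81 (median 3.38) in the donor libraries and 245, 89.4, 99.8 and 66.6 in host libraries 1 to 4. Leaving host library 1 out moved 3 of these by over 1.5 times: Ccr6 to -4.65, H2-Ea-ps to -3.75 and Ccdc80 to -3.73, and all 3 stayed called.

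Genes of the resting microglial programme were lower in donor macrophages almost as a block. Of 26 tested receptors and secreted proteins of that programme, 25 were called lower and 0 higher, with a median log2 fold change of -2.05. The sizes ran from large to slight. Siglech, a sialic acid-binding lectin, read 60.8 to 206 (median 168) in the donor libraries and 944, 1345, 1153 and 1335 in host libraries 1 to 4 (log2 fold change -3.08 ± 0.16). Tmem119, a membrane protein used to mark microglia, read 984 to 1907 (median 1250) in the donor libraries and 4620, 4138, 4856 and 3875 in host libraries 1 to 4 (log2 fold change -1.71 ± 0.18). Cx3cr1, the fractalkine receptor, differed less, with 3126 to 6321 (median 3873) in the donor libraries and 7662, 8486, 8934 and 7957 in host libraries 1 to 4 and a log2 fold change of -0.96 ± 0.21 (standard error, adjusted p = 0.00319). For Trem2, the lipid-sensing receptor of phagocytes, the log2 fold change was -0.71 ± 0.13 (standard error, adjusted p = 0.000645), and for Tgfbr1, a TGF-beta receptor, -0.56 ± 0.14 (standard error, adjusted p = 0.00699). Tgfbr1 was not called with the replicate block on GC-corrected values (-0.38, adjusted p = 0.0721). The 1 member not called was Fcrls, an Fc receptor-like protein, at 0.97 (adjusted p = 0.0914).

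Transcription factors divided along the same line. Among 12 factors enriched in microglia, 8 were called lower and 1 higher, with a median of -0.60. Sall3, a relative of Sall1, read 0.871 to 4.4 (median 2.58) in the donor libraries and 84.6, 87.4, 82.7 and 122 in host libraries 1 to 4, a log2 fold change of -4.87 ± 0.28 (standard error, adjusted p = 5.06e-08). Bhlhe41, a repressor known from microglia, read 54.9 to 99.5 (median 65.3) in the donor libraries and 252, 193, 162 and 228 in host libraries 1 to 4 (log2 fold change -1.52 ± 0.17). The 1 called higher was the zinc finger gene Zfp691 (0.87 ± 0.22). Among 20 factors of macrophages and monocytes, 16 were called higher, 0 lower and 4 neither, with a median of 1.28. For 8 of the 20 all donor libraries lay above all host libraries, as for 13.3% of all tested genes. In the other called factors the groups overlapped. Ahr, the aryl hydrocarbon receptor, read 23.7 to 34.3 (median 27.2) in the donor libraries and 0.546, 0.0632, 2.29 and 0.227 in host libraries 1 to 4, a log2 fold change of 4.18 ± 0.27 (standard error, adjusted p = 1.11e-07). Runx3 had a log2 fold change of 3.22 ± 0.24 (standard error, adjusted p = 3.63e-07), and Pparg, a lipid-activated nuclear receptor, of 2.83 ± 0.32 (standard error, adjusted p = 1.4e-05). Of 16 factors shared by both lineages, 2 were called higher and 1 lower. Irf8 read 392 to 711 (median 499) in the donor libraries and 599, 451, 546 and 524 in host libraries 1 to 4, with overlapping groups and a log2 fold change of -0.002 (adjusted p = 0.993). Runx1 was at -0.08 (adjusted p = 0.692). A p above the threshold does not show that such factors are equal in both cell types.

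**Figure D2:**
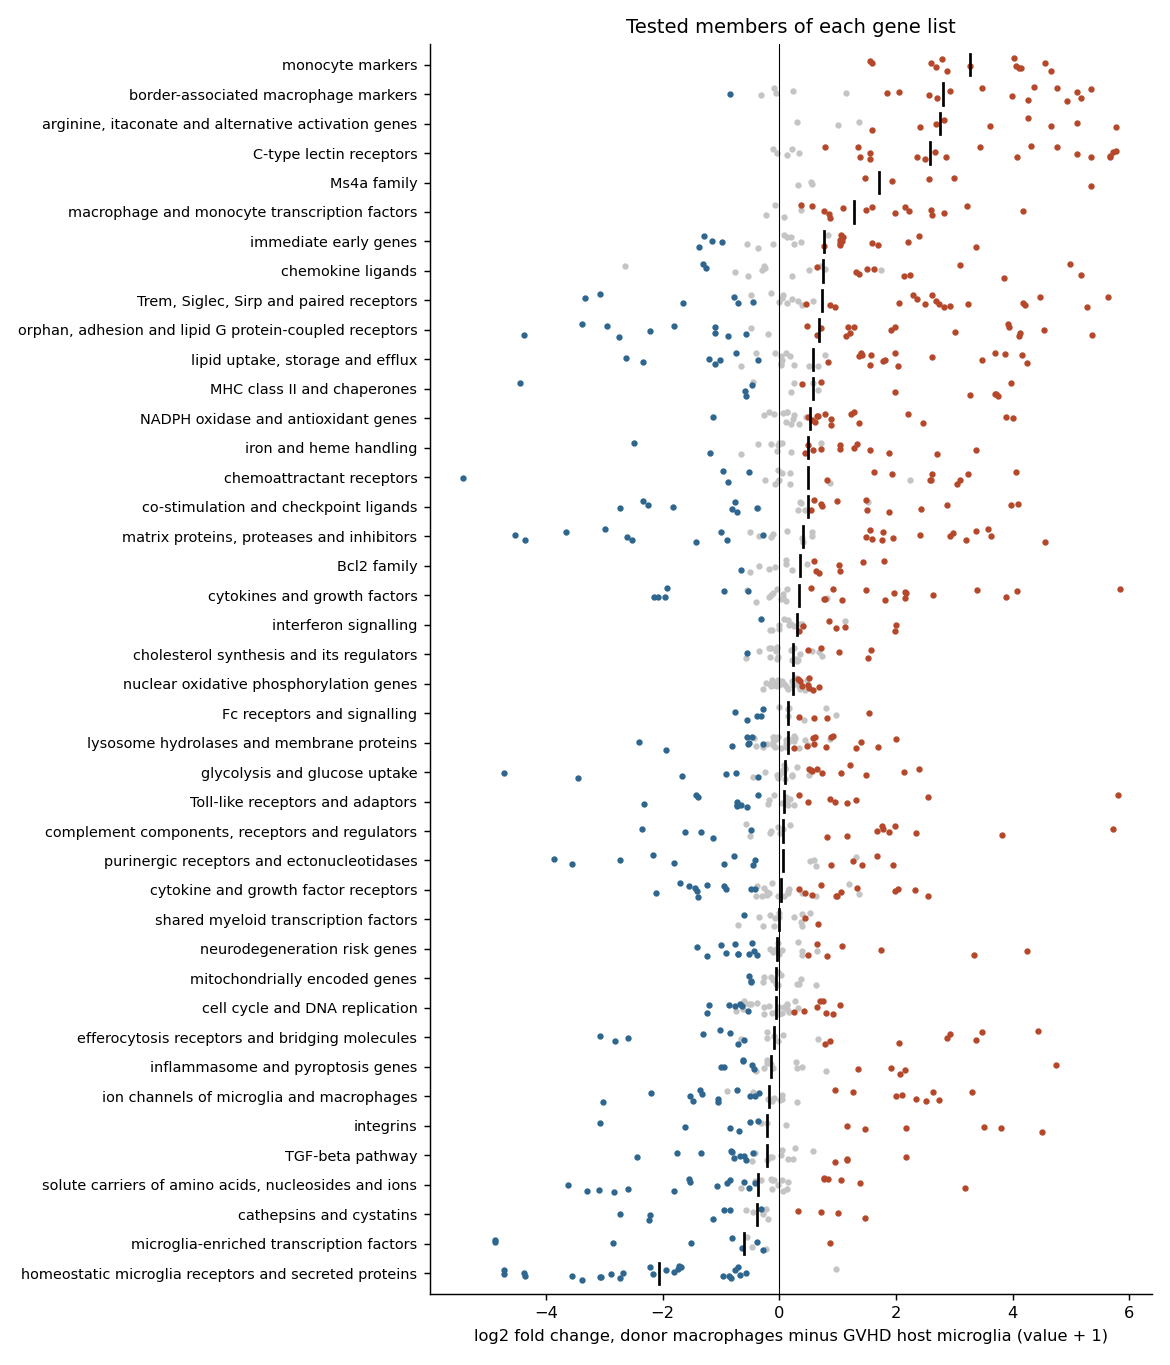
Log2 fold changes (x axis, donor minus host) of the tested members of each gene list (rows, ordered by median). Red points were called higher in donor macrophages, blue points lower and grey points neither, and the black tick is the list median. The monocyte list lies farthest to the right at 3.28 and the microglial receptor list farthest to the left at -2.05.

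Markers of border-associated macrophages, the resident macrophages of meninges and perivascular spaces, were mostly higher in the donor cells. Of 20 tested, 14 were called higher and 1 lower, with a median of 2.81. Mrc1, the mannose receptor, read 575 to 1024 (median 854) in the donor libraries and 47.1, 19.9, 24.7 and 15.1 in host libraries 1 to 4, a log2 fold change of 5.10 ± 0.32 (standard error, adjusted p = 9.43e-08). Dab2, an endocytic adaptor, read 519 to 694 (median 594) in the donor libraries and 50.1, 24.9, 40.8 and 15 in host libraries 1 to 4 (log2 fold change 4.37 ± 0.32), and Cd36, a scavenger receptor, 237 to 554 (median 402) in the donor libraries and 82.6, 30.9, 19.9 and 27.9 in host libraries 1 to 4 (log2 fold change 3.47 ± 0.33). Lyve1, a hyaluronan receptor, was called at 2.57 ± 0.53 (standard error, adjusted p = 0.0018) but remained low, at 2.4 to 9.62 in the donor libraries, and its log2 fold change was 3.23 without donor libraries 1 and 5. Folr2, a folate receptor, and Timd4, a phosphatidylserine receptor, were not called, at -0.31 (adjusted p = 0.575) and -0.09 (adjusted p = 0.843). The 1 marker called lower was Slco2b1, an organic anion transporter, at -0.84 ± 0.31 (standard error, adjusted p = 0.0497). That call was lost in many alternatives, such as without host library 3 (-0.74, adjusted p = 0.132).

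All 13 tested monocyte markers were called higher, with a median of 3.28. Ccr2, the receptor that draws monocytes out of marrow, read 48.8 to 918 (median 321) in the donor libraries and 22.8, 16.2, 12.2 and 13.2 in host libraries 1 to 4, a log2 fold change of 4.06 ± 0.63 (standard error, adjusted p = 0.000224), and 4.87 without donor libraries 1 and 5. Ace, the angiotensin-converting enzyme, read 7.75 to 53.8 (median 20.9) in the donor libraries and 0.078, 0.253, 0.255 and 0.227 in host libraries 1 to 4, a log2 fold change of 4.12 ± 0.40 (standard error, adjusted p = 4.11e-06). C-type lectin receptors, which bind sugars of microbes and of host cells, were higher in 19 of 24 cases and lower in 0, with a median of 2.58. Mgl2 read 47.5 to 361 (median 225) in the donor libraries and 6.12, 2.15, 0.765 and 3.28 in host libraries 1 to 4, Clec4n, which encodes dectin-2, at least 62.6 (median 108) in the donor libraries and 5.66, 2.46, 2.68 and 2.38 in host libraries 1 to 4, and Clec7a, which encodes dectin-1, 284 to 842 (median 453) in the donor libraries and 97.4, 66.6, 53.8 and 95.9 in host libraries 1 to 4. Clec5a, at -0.03 (adjusted p = 0.842), and Clec4a2, at 0.33 (adjusted p = 0.157), were not called. Of 8 tested Ms4a genes, 5 were called higher and 0 lower. Ms4a6c read 381 to 685 (median 562) in the donor libraries and 80.3, 61.8, 65 and 65 in host libraries 1 to 4, a log2 fold change of 2.99 ± 0.16 (standard error, adjusted p = 2.12e-08), while its neighbour Ms4a6d was not called, at 0.32 (adjusted p = 0.159).

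Of 24 chemokine ligands, 11 were called higher and 2 lower, with a median of 0.75. The share called lower was under that of all tested genes. Cxcl16, a ligand for Cxcr6 on T cells, read 646 to 1024 (median 799) in the donor libraries and 248, 160.4, 163 and 179 in host libraries 1 to 4, a log2 fold change of 2.13 ± 0.12 (standard error, adjusted p = 4.46e-08). Ccl7, a monocyte attractant, had a log2 fold change of 3.09 ± 0.30 (standard error, adjusted p = 4.11e-06). Ccl4 was lower, at -1.31 ± 0.25 (standard error, adjusted p = 0.00105), with overlapping groups, and was not called without the API covariate (-1.11, adjusted p = 0.265). Ccl2, at -0.30 (adjusted p = 0.379), and Cxcl9 and Cxcl10, which attract Cxcr3-bearing T cells, at 0.78 (adjusted p = 0.318) and 0.52 (adjusted p = 0.245), were not called. Of 24 receptors, 10 were called higher and 4 lower. Besides Ccr2, S1pr1, a sphingosine 1-phosphate receptor that guides exit into blood, read 125 to 261 (median 151) in the donor libraries and 20.4, 28.9, 35.8 and 22.2 in host libraries 1 to 4, a log2 fold change of 2.59 ± 0.35 (standard error, adjusted p = 6.87e-05). Ccr1 was higher at 1.94 ± 0.16 (standard error, adjusted p = 1.09e-06).

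Integrins, the adhesion receptors, differed in both directions. Of 15 tested, 6 were called higher and 6 lower. The alpha-4 chain Itga4 read 91.9 to 207 (median 153) in the donor libraries and 10.7, 3.4, 4.11 and 4.98 in host libraries 1 to 4, a log2 fold change of 4.51 ± 0.28 (standard error, adjusted p = 9.3e-08). Its partner Itgb7 had a log2 fold change of 3.51 ± 0.34 (standard error, adjusted p = 4.23e-06), while Itgb1, the other partner of Itga4, was not called, at 0.11 (adjusted p = 0.759). Itgal, the alpha chain of LFA-1, read 94.7 to 219.9 (median 126) in the donor libraries and 23.9, 4.99, 7.84 and 7.15 in host libraries 1 to 4 (log2 fold change 3.80 ± 0.19). Itgam, the alpha chain of complement receptor 3, was lower, with 243 to 331 (median 265) in the donor libraries and 761, 879, 934 and 826 in host libraries 1 to 4 and a log2 fold change of -1.62 ± 0.09 (standard error, adjusted p = 4.93e-08). Their shared beta chain Itgb2 had -0.36 ± 0.11 (standard error, adjusted p = 0.0199), a call lost without donor libraries 1 and 5 (-0.33, adjusted p = 0.0527), without host library 2 (-0.34, adjusted p = 0.0601) and without host library 3 (-0.31, adjusted p = 0.071). Itgb3 was lower at -3.07 ± 0.31 (standard error, adjusted p = 5.44e-06).

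Among purinergic receptors and ectonucleotidases, which sense and break down extracellular nucleotides, 5 of 18 were called higher and 9 lower. P2ry13, a neighbour of P2ry12, read 770.2 to 1113 (median 802) in the donor libraries and 3514, 4014, 4645 and 3698 in host libraries 1 to 4, a log2 fold change of -2.17 ± 0.14 (standard error, adjusted p = 1.1e-07). Adora3, an adenosine receptor, read 9.7 to 28.5 (median 18.6) in the donor libraries and 316, 258, 285 and 235 in host libraries 1 to 4, a log2 fold change of -3.86 ± 0.23 (standard error, adjusted p = 5.58e-08). P2rx4, an ATP-gated channel, was higher, with 278 to 413 (median 313) in the donor libraries and 183.3, 119.6, 124 and 133 in host libraries 1 to 4 and a log2 fold change of 1.26 ± 0.08 (standard error, adjusted p = 7.13e-08). Adora2b was higher at 1.95 ± 0.50 (standard error, adjusted p = 0.00777) from low values. Of 28 other G protein-coupled receptors, 16 were called higher and 10 lower. Gpr65, a proton sensor, read 507 to 739 (median 597) in the donor libraries and 64.7, 35.6, 27.7 and 37 in host libraries 1 to 4, a log2 fold change of 3.93 ± 0.18 (standard error, adjusted p = 1.12e-08). Ptger4, a prostaglandin E2 receptor, read 96.8 to 280.2 (median 166) in the donor libraries and 13.9, 6.22, 6.85 and 8.06 in host libraries 1 to 4 (log2 fold change 4.13 ± 0.25). Gpr34, a receptor for lysophosphatidylserine, was lower, at -1.81 ± 0.13 (standard error, adjusted p = 2.15e-07), and so were Gpr84, at -3.38 ± 0.16 (standard error, adjusted p = 1.26e-08), and Hcar2, at -2.22 ± 0.31 (standard error, adjusted p = 9.4e-05).

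Toll-like receptors showed no common direction. Of 26 receptors and adaptors, 8 were called higher and 9 lower, with a median of 0.08. While Tlr8 was among the genes highest in donor cells, Tlr3, a receptor for double-stranded RNA, was lower. It read 32.5 to 50.8 (median 37.9) in the donor libraries and 244, 206, 211 and 159 in host libraries 1 to 4, a log2 fold change of -2.33 ± 0.12 (standard error, adjusted p = 2.34e-08). Tlr9, a receptor for unmethylated CpG DNA, was lower at -1.42 ± 0.22 (standard error, adjusted p = 0.000189), and Tlr7, the close relative of Tlr8, at -0.72 ± 0.13 (standard error, adjusted p = 0.00089). Tlr2, which senses bacterial lipoproteins, was higher at 1.15 ± 0.16 (standard error, adjusted p = 8.45e-05). Tlr4, the lipopolysaccharide receptor, and the adaptor Myd88 were not called, at 0.12 (adjusted p = 0.38) and 0.11 (adjusted p = 0.568). Irak3, an inhibitor of this pathway, was higher at 2.55 ± 0.26 (standard error, adjusted p = 5.66e-06).

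Cytokine genes were called higher in 16 and lower in 6 of 34 cases. Il10, an anti-inflammatory cytokine, read 6.21 to 21.9 (median 10.4) in the donor libraries and 0.078, 0.0632, 0 and 0.454 in host libraries 1 to 4, a log2 fold change of 3.40 ± 0.28 (standard error, adjusted p = 9.86e-07). Igf1, a growth factor, read 42.1 to 109.8 (median 64.7) in the donor libraries and 3.12, 3.35, 2.74 and 2.84 in host libraries 1 to 4 (log2 fold change 4.07 ± 0.28). Csf1, a growth factor of macrophages and microglia, was lower, with 4.91 to 23.1 (median 7.53) in the donor libraries and 43.9, 32.8, 47.2 and 43.7 in host libraries 1 to 4 and a log2 fold change of -2.09 ± 0.27 (standard error, adjusted p = 4.52e-05). Il6 was lower at -2.14 ± 0.25 (standard error, adjusted p = 1.79e-05). Tnf read 14, 37.8, 50.1, 85.4, 31.3 and 59.8 in donor libraries 1 to 6 and 34.5, 192, 259 and 208 in host libraries 1 to 4, a log2 fold change of -1.95 ± 0.28 (standard error, adjusted p = 0.000137). Host library 1 thus lay among the donor libraries for Tnf, and without the API covariate the gene was not called (adjusted p = 0.0838). Among 40 cytokine and growth factor receptors, 12 were called higher and 11 lower. Ifnar1, a chain of the type I interferon receptor, read 419.8 to 568 (median 499.8) in the donor libraries and 189.8, 104, 104 and 124 in host libraries 1 to 4, a log2 fold change of 1.98 ± 0.11 (standard error, adjusted p = 3.8e-08), while the interferon gamma receptor chains Ifngr1 and Ifngr2 were not called, at -0.13 (adjusted p = 0.328) and 0.14 (adjusted p = 0.162). Csf1r, the receptor for Csf1, was not called either, at -0.38 (adjusted p = 0.223). Il6st, the signalling chain shared by the Il6 family, was lower at -1.70 ± 0.19 (standard error, adjusted p = 1.28e-05).

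Inflammasome genes were called higher in 5 and lower in 6 of 21 cases. Nlrc4, a sensor that acts with the Naip proteins, read 33.2 to 43.2 (median 37.3) in the donor libraries and 0.897, 0.316, 0.255 and 0.567 in host libraries 1 to 4, a log2 fold change of 4.74 ± 0.22 (standard error, adjusted p = 1.12e-08). Of the Naip genes, Naip2 was lower at -0.63 ± 0.13 (standard error, adjusted p = 0.00209) and Naip5 was not called, at -0.40 (adjusted p = 0.0755). Pycard, the adaptor ASC, was lower at -0.9955 ± 0.20 (standard error, adjusted p = 0.0017). Nlrp3 and Casp1 were not called, at 0.39 (adjusted p = 0.259) and 0.29 (adjusted p = 0.0816).

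**Figure D3:**
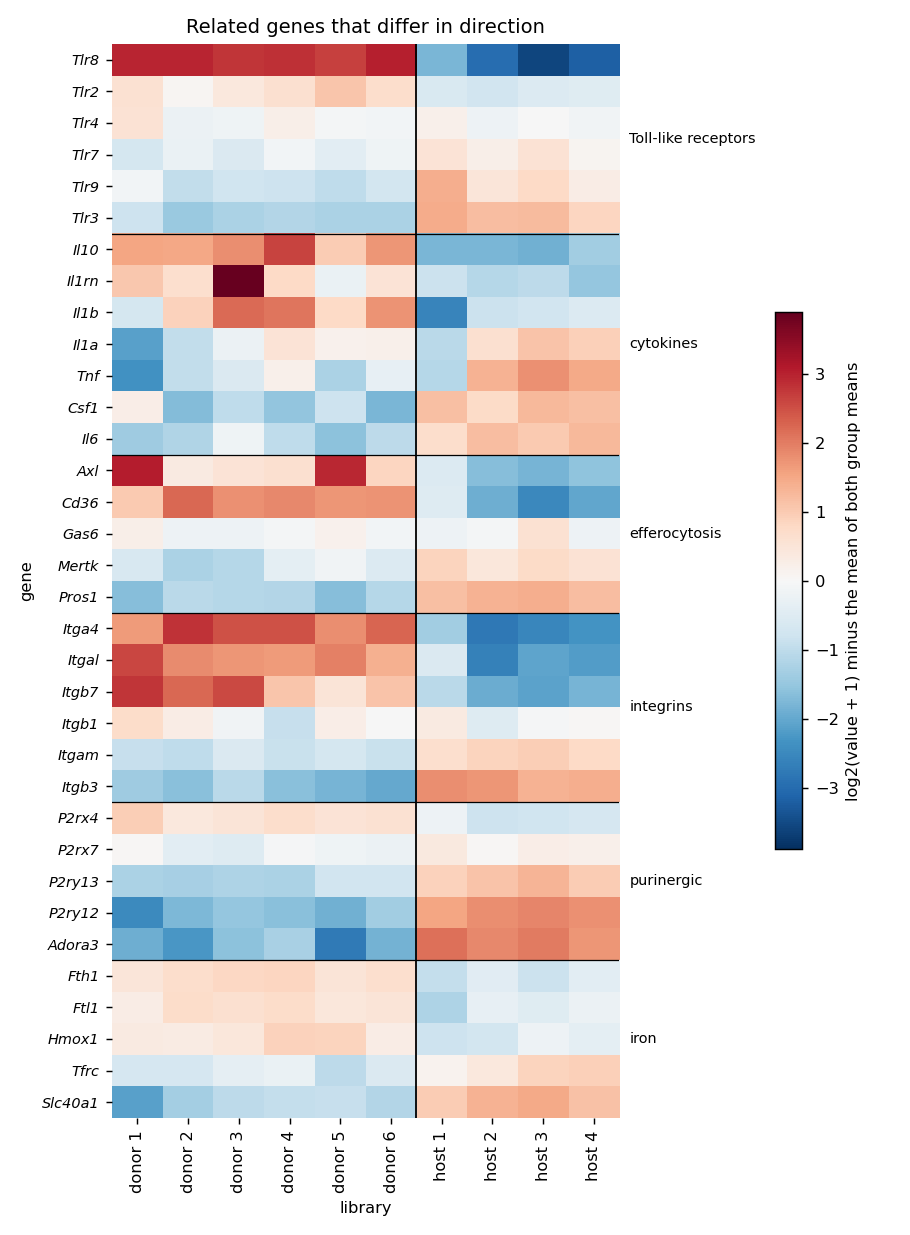
Values of related genes in each library, as log2(normalised count + 1) minus the mean of both group means (red above, blue below). Within each of the 6 families some members are high in all donor libraries (Tlr8, Il10, Itga4) and others in all host libraries (Tlr3, Csf1, Itgb3).

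Complement genes were called higher in 10 and lower in 5 of 23 cases. Cfp, or properdin, which stabilises the alternative pathway convertase, read 20.4 to 244 (median 97.4) in the donor libraries and 4.45, 4.42, 8.73 and 2.95 in host libraries 1 to 4, a log2 fold change of 3.82 ± 0.56 (standard error, adjusted p = 0.000151). The C1q chains C1qa, C1qb and C1qc were not called, at -0.14 (adjusted p = 0.272), 0.02 (adjusted p = 0.926) and 0.06 (adjusted p = 0.919). Fc receptors and their signalling genes were called higher in 4 and lower in 5 of 16 cases. Fcgr3 was lower at -0.55 ± 0.13 (standard error, adjusted p = 0.00577), a call lost under quantile normalisation (-0.41, adjusted p = 0.0737), and Fcgr2b, the inhibitory receptor, was not called, at 0.15 (adjusted p = 0.452). Of 34 Trem, Siglec, Sirp and paired receptors, 18 were called higher and 6 lower. Lilra5 read 131 to 185 (median 155) in the donor libraries and 25.7, 24.1, 26.7 and 14 in host libraries 1 to 4, a log2 fold change of 2.82 ± 0.22 (standard error, adjusted p = 6.43e-07). Pirb, an inhibitory receptor for class I molecules, had 2.05 ± 0.22 (standard error, adjusted p = 8.24e-06). Siglecf was lower at -3.32 ± 0.15 (standard error, adjusted p = 1.12e-08), and Tyrobp, the adaptor of many of these receptors, was not called, at 0.22 (adjusted p = 0.183).

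For efferocytosis, the uptake of dying cells, the receptors of the TAM family went in opposite directions. Axl read 320 to 2071 (median 416) in the donor libraries and 173, 78, 70 and 83 in host libraries 1 to 4, a log2 fold change of 2.93 ± 0.41 (standard error, adjusted p = 9.89e-05). Mertk read 62.2 to 132 (median 98.3) in the donor libraries and 268, 199, 247 and 218 in host libraries 1 to 4, a log2 fold change of -1.30 ± 0.20 (standard error, adjusted p = 0.000181). Of their ligands, Pros1 was lower at -2.59 ± 0.12 (standard error, adjusted p = 1.26e-08) and Gas6 was not called, at -0.03 (adjusted p = 0.94). Over the 23 genes of this list 8 were called higher and 8 lower. Of 25 TGF-beta pathway genes, 4 were called higher and 10 lower. Eng, a co-receptor, was lower at -1.75 ± 0.20 (standard error, adjusted p = 1.44e-05) and the inhibitor Smad7 at -1.35 ± 0.18 (standard error, adjusted p = 6.38e-05). Itgb8, whose protein activates latent TGF-beta, was higher at 2.17 ± 0.35 (standard error, adjusted p = 0.00031). Tgfb1 was low in both groups and not called, at 0.03 (adjusted p = 0.937).

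Class II molecules of the major histocompatibility complex (MHC) present peptides to CD4 T cells, and their classical chains are switched on together by the co-activator Ciita. The promoters of H2-Aa and H2-Eb1 are shown because these chains were high together in the donor cells, on GRCm38.p6 as RefSeq gives it. They run from 250 bases before the start of the gene to 50 after it, on the strand of the gene, at chr17:34287774-34288073 (minus strand) and chr17:34305617-34305916 (plus strand). Capitals mark the motif CCAATNNG or its reverse complement, the Y box of class II promoters, which begins 51 and 62 bases before the start. It was searched on both strands and occurs in 14.4% of 27025 promoters of this length, and a match is a description of the letters only.
H2-Aa: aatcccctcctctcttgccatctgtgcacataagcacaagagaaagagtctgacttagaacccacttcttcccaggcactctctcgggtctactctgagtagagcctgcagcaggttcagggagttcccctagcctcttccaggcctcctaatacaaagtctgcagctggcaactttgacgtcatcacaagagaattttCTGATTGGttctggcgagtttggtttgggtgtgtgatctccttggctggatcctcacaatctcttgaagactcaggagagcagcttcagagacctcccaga
H2-Eb1: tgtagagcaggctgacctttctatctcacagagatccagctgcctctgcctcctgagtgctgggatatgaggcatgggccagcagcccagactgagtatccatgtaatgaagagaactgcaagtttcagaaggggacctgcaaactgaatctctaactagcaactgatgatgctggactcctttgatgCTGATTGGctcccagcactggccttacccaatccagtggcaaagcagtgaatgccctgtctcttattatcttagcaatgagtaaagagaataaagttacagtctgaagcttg

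H2-Aa read 5861 to 10870 (median 9777) in the donor libraries and 1329, 522, 358 and 529 in host libraries 1 to 4, a log2 fold change of 3.96 ± 0.33 (standard error, adjusted p = 9.3e-07). H2-Eb1 read 3607 to 8813 (median 7176) in the donor libraries and 1154, 447, 294 and 426 in host libraries 1 to 4, a log2 fold change of 3.75 ± 0.38 (standard error, adjusted p = 6.37e-06). Donor library 5 was the lowest donor library and host library 1 the highest host library for both, and the groups did not overlap. Ciita read 65.1 to 302 (median 94.8) in the donor libraries and 22.4, 4.99, 4.97 and 6.92 in host libraries 1 to 4, a log2 fold change of 3.70 ± 0.18 (standard error, adjusted p = 1.54e-08). Of 17 tested genes of the pathway, these 3 included, 8 were called higher and 4 lower. H2-Oa and H2-Ob, which restrain peptide loading, were lower at -0.58 ± 0.17 (standard error, adjusted p = 0.0157) and -0.59 ± 0.13 (standard error, adjusted p = 0.00298). The call of H2-Oa was lost within API197 alone (-0.51, adjusted p = 0.074) and without host library 1 (adjusted p = 0.057). The largest difference in the other direction was in H2-Ea-ps, the alpha chain of the E molecule, which the annotation lists as a polymorphic pseudogene (ENSMUSG00000036322, chromosome 17, 34341959 to 34344645). It read 6.98, 7.59, 15.1, 15.1, 1.2 and 7.25 in donor libraries 1 to 6 and 335, 166, 113 and 137 in host libraries 1 to 4, a log2 fold change of -4.45 ± 0.78 (standard error, adjusted p = 0.000599), and of -3.75 without host library 1. As background, the E alpha gene is silent in some mouse strains and active in others. Set against its partner chain H2-Eb1 in the same library, as a ratio of deposited values with no correction for length, it came to 0.0333% to 0.205% in the donor libraries and 29.0% to 38.4% in the GVHD host libraries. The TCD host libraries 1 to 3 gave 0%, 33.3% and 26.9%. The donor libraries and TCD host library 1 were therefore alike in holding little or no H2-Ea-ps beside H2-Eb1.

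**Figure D4:**
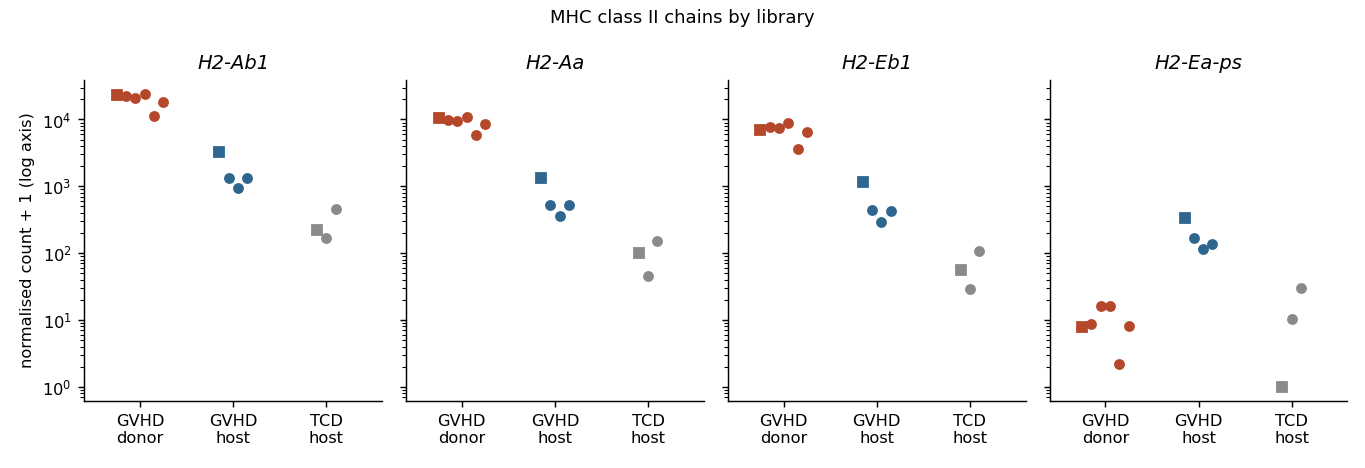
Normalised counts plus 1 (log axis) of 4 class II chains in each library of GVHD donor macrophages (red), GVHD host microglia (blue) and TCD host microglia (grey), with squares for API183. H2-Ab1, H2-Aa and H2-Eb1 are highest in the donor libraries, and H2-Ea-ps is highest in the GVHD host libraries and at 0 in TCD host library 1.

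Among 26 co-stimulation and checkpoint genes, 12 were called higher and 8 lower. Slamf7 read 138 to 263 (median 225) in the donor libraries and 35.1, 8.79, 5.86 and 10.9 in host libraries 1 to 4, a log2 fold change of 4.10 ± 0.32 (standard error, adjusted p = 6.04e-07). Cd72 was higher at 2.43 ± 0.08 (standard error, adjusted p = 2.59e-09). Cd86, a ligand of Cd28 on T cells, was lower, with 372 to 631 (median 549) in the donor libraries and 835, 815, 818 and 812 in host libraries 1 to 4 and a log2 fold change of -0.72 ± 0.14 (standard error, adjusted p = 0.00114). Its relative Cd80 was not called, at 0.32 (adjusted p = 0.166), nor was Cd274, which encodes PD-L1, at 0.37 (adjusted p = 0.282). Havcr2, which encodes Tim-3, was lower at -1.82 ± 0.20 (standard error, adjusted p = 1.01e-05). Of 20 interferon signalling genes, 7 were called higher and 1 lower, with Irf7 at 2.00 ± 0.29 (standard error, adjusted p = 0.000115) and Jak1 at -0.32 ± 0.08 (standard error, adjusted p = 0.00535). Jak1 was not called with the replicate block (-0.31, adjusted p = 0.0548).

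Lysosomal genes gave no common direction. Of 47 hydrolases and membrane proteins, 12 were called higher and 8 lower. Galc, the galactosylceramidase that breaks down a myelin lipid, read 113 to 199 (median 140.2) in the donor libraries and 51.5, 45.8, 40 and 43.1 in host libraries 1 to 4, a log2 fold change of 1.69 ± 0.17 (standard error, adjusted p = 4.45e-06). Cd63 was higher at 1.40 ± 0.12 (standard error, adjusted p = 9.62e-07), and Arsb, a sulfatase, lower at -2.40 ± 0.26 (standard error, adjusted p = 9.65e-06). Of 16 cathepsins and cystatins, 4 were called higher and 7 lower. Ctsc, which activates granule proteases, read 4910 to 6147 (median 5704) in the donor libraries and 2893, 1802, 1593 and 2203 in host libraries 1 to 4, a log2 fold change of 1.46 ± 0.15 (standard error, adjusted p = 6.21e-06). Ctsb was higher at 1.00 ± 0.10 (standard error, adjusted p = 5.77e-06). Cst3, the protease inhibitor cystatin C, was lower, with 2369 to 6722 (median 5918) in the donor libraries and 13310, 26830, 21770 and 24770 in host libraries 1 to 4 and a log2 fold change of -2.21 ± 0.20 (standard error, adjusted p = 1.76e-06), and of -3.06 under quantile normalisation. Ctsf was lower at -2.74 ± 0.13 (standard error, adjusted p = 1.26e-08). Ctsd was not called, at -0.22 (adjusted p = 0.539).

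Genes of lipid uptake, storage and efflux were called higher in 16 and lower in 7 of 36 cases. Pltp, the phospholipid transfer protein, read 43.4 to 132 (median 82.2) in the donor libraries and 5.2, 3.42, 3.96 and 2.39 in host libraries 1 to 4, a log2 fold change of 4.17 ± 0.23 (standard error, adjusted p = 2.68e-08). Msr1, a scavenger receptor, read 41.9 to 108 (median 77.2) in the donor libraries and 4.57, 4.24, 4.4 and 2.95 in host libraries 1 to 4 (log2 fold change 3.87 ± 0.23). Abca1, a cholesterol exporter, was higher at 0.83 ± 0.14 (standard error, adjusted p = 0.000392), and its relative Abcg1 was not called, at -0.40 (adjusted p = 0.0694). Abca9 was lower at -1.11 ± 0.10 (standard error, adjusted p = 2.11e-06) and the lipase Mgll at -2.63 ± 0.19 (standard error, adjusted p = 3.5e-07). Among 26 cholesterol synthesis genes and regulators, 5 were called higher and 1 lower, shares of the list near the background on the higher side and under it on the lower.

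Iron genes were called higher in 12 and lower in 2 of 23 cases. The ferritin chains Fth1 and Ftl1, which store iron, had log2 fold changes of 1.28 ± 0.13 (standard error, adjusted p = 5.17e-06) and 1.05 ± 0.12 (standard error, adjusted p = 1.8e-05). Blvrb, an enzyme of heme breakdown, was higher at 1.89 ± 0.13 (standard error, adjusted p = 2.52e-07). Slc40a1, or ferroportin, the iron exporter, was lower, with 40 to 94 (median 82) in the donor libraries and 345, 443, 487 and 382 in host libraries 1 to 4 and a log2 fold change of -2.50 ± 0.18 (standard error, adjusted p = 3.35e-07). Tfrc, the transferrin receptor that imports iron, was lower at -1.20 ± 0.18 (standard error, adjusted p = 0.000217). Of 28 oxidase and antioxidant genes, 15 were called higher and 1 lower. Cybb, the catalytic chain of the phagocyte oxidase, read 1287 to 1914 (median 1735) in the donor libraries and 224, 83.4, 73.5 and 89.8 in host libraries 1 to 4, a log2 fold change of 4.01 ± 0.21 (standard error, adjusted p = 2.34e-08). Its partner chains Cyba and Ncf1 were not called, at 0.35 (adjusted p = 0.118) and -0.25 (adjusted p = 0.0599). Prdx1, a peroxiredoxin, was higher at 1.29 ± 0.10 (standard error, adjusted p = 4.21e-07).

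Glycolysis genes were called higher in 10 and lower in 6 of 31 cases. Isoforms of the same step differed in direction: of the phosphofructokinases, Pfkp was higher at 2.39 ± 0.36 (standard error, adjusted p = 0.000196) and Pfkl lower at -0.75 ± 0.16 (standard error, adjusted p = 0.00203). Of the lactate dehydrogenases, Ldhb read 54.8 to 178 (median 127) in the donor libraries and 789.7, 1410, 1110 and 1274 in host libraries 1 to 4, a log2 fold change of -3.46 ± 0.23 (standard error, adjusted p = 1.55e-07), and Ldha was not called, at 0.10 (adjusted p = 0.716). Of 36 nuclear genes of oxidative phosphorylation, 8 were called higher and 0 lower, all at under 2-fold. Of 15 mitochondrially encoded genes, 0 were called higher and 3 lower. Genes of arginine use and alternative activation were called higher in 9 and lower in 0 of 12 cases, with a median of 2.76. Chil3, a chitinase-like lectin, had 4.65 ± 0.81 (standard error, adjusted p = 0.000548), 5.26 without host library 4 and 5.29 without donor libraries 1 and 5. Arg1, or arginase, was not called, at 1.01 (adjusted p = 0.525).

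Matrix genes were called higher in 14 and lower in 10 of 33 cases. Tgfbi, an adhesion protein of the matrix, read 292 to 541 (median 355) in the donor libraries and 56.7, 47.3, 42.8 and 51.6 in host libraries 1 to 4, a log2 fold change of 2.97 ± 0.18 (standard error, adjusted p = 6.61e-08). Mmp14, a membrane protease, was higher at 1.94 ± 0.24 (standard error, adjusted p = 4e-05). Serpine2, an inhibitor of thrombin, was lower, with 93.1 to 216 (median 170.2) in the donor libraries and 749.6, 1047, 1067 and 798 in host libraries 1 to 4 and a log2 fold change of -2.61 ± 0.24 (standard error, adjusted p = 2.32e-06). Immediate early genes, which respond within minutes to stimulation and to tissue dissociation, were called higher in 12 and lower in 4 of 25 cases. All donor libraries lay above all host libraries for only 3 of the 25 and below them for 1. Among all tested genes those shares were 13.3% and 14.6%. The list summed to 10172.8 in host library 1 and to 24488.6 to 35426.8 in host libraries 2 to 4. Fosl2 was higher at 2.40 ± 0.29 (standard error, adjusted p = 2.82e-05) and Nr4a2 at 3.37 ± 0.35 (standard error, adjusted p = 6.54e-06), while Myc was lower at -1.15 ± 0.23 (standard error, adjusted p = 0.00135) and Egr1 at -1.28 ± 0.28 (standard error, adjusted p = 0.00255), a call lost without the API covariate (-1.11, adjusted p = 0.198). Of 16 Bcl2 family genes, which govern cell death, 7 were called higher and 1 lower, with Pmaip1 at 1.79 ± 0.17 (standard error, adjusted p = 2.5e-06) and Bid at -0.66 ± 0.08 (standard error, adjusted p = 2.93e-05). Cell cycle genes were called higher in 8 and lower in 7 of 37 cases, and Mki67, a marker of dividing cells, was not called, at -0.06 (adjusted p = 0.866). Mouse counterparts of neurodegeneration risk genes were called higher in 7 and lower in 11 of 28 cases. Besides Apoe, Lrrk2 was higher at 3.33 ± 0.13 (standard error, adjusted p = 5.78e-09) and Sorl1 at 1.74 ± 0.12 (standard error, adjusted p = 2.46e-07), and Bin1 and Tbk1 were lower at -1.24 ± 0.20 (standard error, adjusted p = 0.000322) and -1.41 ± 0.21 (standard error, adjusted p = 0.000184).

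The spread between libraries was larger among the donors, and most of that rested on donor library 5. Over 7969 genes with a mean of at least 10 in the donor libraries the median SD of log2 values within an API number was 0.23, and over 7667 such genes in the host libraries it was 0.14. In each group library 1 is the only one of API183 and adds nothing to this SD. The SD, which also ranked the genes below, thus rests on donor libraries 2 to 6 and host libraries 2 to 4. Within API197 the median SD was 0.23 in donor libraries 2 to 6, 0.16 without donor library 5 and 0.14 in host libraries 2 to 4. The 10 named genes that varied most between donor libraries included the monocyte genes Ly6c2 and Plac8. Ly6c2, a surface protein of inflammatory monocytes, read 12.8, 59.1, 107, 28.9, 3.27 and 9.16 in donor libraries 1 to 6, and Plac8 12.2, 173, 299.6, 81.6, 5.19 and 19.2. Ccr2, which is not among the 10, read 194, 566, 918, 434, 48.8 and 208. Donor library 3 was highest and donor library 5 lowest for all 3. The log2 fold change of Ly6c2 was 4.03 ± 0.74 (standard error, adjusted p = 0.000824), and 4.87 without donor libraries 1 and 5. For Plac8 it was 3.28 ± 0.89 (standard error, adjusted p = 0.011), 4.37 without donor libraries 1 and 5, 3.87 without donor library 5 and 2.65 (adjusted p = 0.0228) with the replicate block. In host libraries 1 to 4 Ccr2 read 22.8, 16.2, 12.2 and 13.2. Donor library 3 alone held Arg1 at 170.1, against 2.78 or less in the other donor libraries, and was also highest for Ccr7, a receptor of migrating dendritic cells, at 139, for the chemokine Ccl17 at 70.01, and for Ifi205, Ifitm1 and F10. Cd300e was highest in donor library 2, at 139.6. Gemin4, also among the 10, read 17.9, 0.108, 12.3, 0, 20.2 and 16.3 in donor libraries 1 to 6. Between host libraries 2 to 4 Stab2, a scavenger receptor of sinusoidal endothelium, varied most, at 29.9, 27.3 and 0, and it read 8.58 in host library 1.

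**Figure D5:**
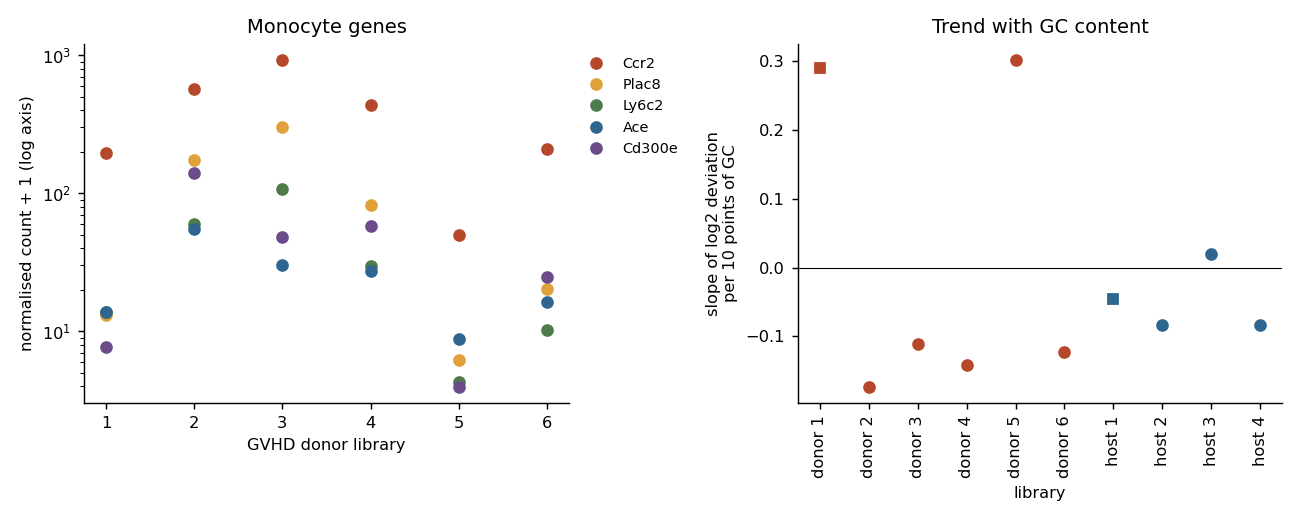
Left, normalised counts plus 1 (log axis) of 5 monocyte genes in donor libraries 1 to 6, with Ccr2 from 48.8 in library 5 to 917.7 in library 3. Right, slope of the log2 deviation with GC content in the 10 GVHD libraries, where donor libraries 1 and 5 stand at 0.290 and 0.301 and the other 8 at or below 0.020 (squares, API183).

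Markers of other cell types were measured in both groups, and their part in the results above was not tested. Of 15 T cell markers, 13 were in the table, and their values summed to 5.7 to 53.3 in the donor libraries and 9.2 to 44.9 in the host libraries. Of 8 markers of natural killer cells, 6 were in the table, with sums of 4.4 to 18.4 and 10 to 25.5. Of 14 neutrophil markers, 11 were in the table, with sums of 190.6 to 934.5 (median 298.4) and 385.5 to 435.2 (median 395.4). Of 11 tested, 7 were called higher and 1 lower, so most calls went the other way from the median sums. Donor library 1 was the highest library for the T cell, natural killer cell and neutrophil sums among the donors. Host library 1, also of API183, was the highest among the hosts for the same sums. The 5 of 9 markers of B and plasma cells in the table summed to 600.8 to 843.0 and 595.4 to 853.4, and 0 were called higher and 0 lower. The B cell gene Ms4a1, left out of the counts of named genes below, averaged only 0.932 in the donor and 0.305 in the host libraries. Those sums thus rest on other genes, and whether they reflect B cells was not tested. The 12 dendritic cell markers summed to 284.3 to 691.3 and 1264.2 to 1628.7, and 7 were called higher and 2 lower. That host sum rests mainly on Siglech, which microglia also express. The 7 of 10 astrocyte markers in the table summed to 48.2 to 86.8 and 338.5 to 448.4, mostly through Slc1a3 at 308 to 429 in the host libraries, while Gja1 stayed at 0.6 to 1.62 and 0.632 to 1.95. The 5 of 11 oligodendrocyte markers in the table summed to 127.9 to 226.4 and 126.8 to 146.2, the 3 of 10 neuron markers to 6.5 to 10 and 10.3 to 18.5, and the 7 of 12 endothelial and pericyte markers to 14.1 to 35.4 and 20.3 to 42.8. The 6 of 10 erythroid and platelet markers in the table summed to 55.7 to 282.2 and 17.4 to 58.8, with donor library 2 and host library 1 the highest. Those sums include Pf4, which is also a macrophage gene, and the hemoglobin genes Hbb-bs, Hba-a1 and Hba-a2, which read 49.1, 32.5 and 54.1 in donor library 2.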

How the data were processed

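RNA was sequenced from donor macrophages and host microglia sorted from mouse brain. The authors deposited normalised counts per gene, a signal that is not a whole number of reads (68.1% to 73.8% of values per library were whole multiples of the smallest step, within 0.02 steps), so no count model was used. Reads were processed with cutadapt 1.9, STAR 2.5.2a, RSEM 1.2.30 and GRCm38, per the submitters' processing notes. The scaling, the choice of the 13783 listed genes (213 without a symbol) and which of 2 RNA kits served each library are not given in the sources used here.

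Values were tested with limma 3.58.1 in R 4.3.3 on log2(value + 1), with a mean-variance trend, the API number as covariate and all 13 sorted libraries in 1 model. Genes needed a value of at least 1 in 3 libraries. Adjusted p-values are Benjamini-Hochberg values over 13086 genes, called under 0.05. The code was tested on simulated data. Python 3.11.15 with pandas 2.3.3, statsmodels 0.14.6 and matplotlib 3.10.9 did the rest, and coordinates are from GENCODE on GRCm38.

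The gene lists and the genes in them were chosen with earlier results of these data known. Named genes are the 5 markers, the 20 with the largest non-overlapping differences per direction (mean of at least 20 in the higher group), list members with the smallest p (up to 5 per direction) or needed for their role, and the 10 most variable per group. Predicted genes were passed over, and some genes are not reported here.

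API and description numbers were taken to pair 4 donor with 4 host libraries, since the deviations of the pairs correlated at 0.39, 0.36, 0.17 and 0.28 (donor libraries 1, 3, 5 and 6 with host libraries 1 to 4). The other combinations ran from -0.34 to 0.4, the highest being donor library 4 with host library 2, so these correlations do not establish the pairing. Deviations were taken from the group means only, so the 0.39 of the API183 pair includes any difference between API numbers. The model with this replicate block is an alternative. The others were pseudocounts, filters, scalings, variance models, the covariate, the libraries included, GC correction and a test against 2-fold.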

Additional observations from a re-analysis of the deposited data

Results flagged for a closer look

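For each gene named here the libraries of a group were searched for 1 library far from the others, with Dixon's test, where the highest value reached 3. This marked 35 of 403 groups of values. Chance marks about 1 in 20 for genes chosen without regard to their values. Some genes here were named for their spread between libraries, and the API number was not fitted, so that rate is no fair reference. All values are normalised counts.

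Host library 1, the only GVHD host library of API183, stood above the other host libraries for Abca1 (259.9), Cd274 (27.35), Cd72 (51.39), Clec4n (5.657), Cxcl9 (101.0), Pfkp (15.01) and Hbb-bs (14.2). It stood below them for Tnf (34.45), Ccl4 (290.9), Gpr34 (2325) and Ncf1 (229.2). Donor library 1, also of API183, was high for Ciita (301.5) and Tlr9 (26.44) and low for Siglech (60.8), Slc40a1 (39.95), Naip5 (24.92) and Msh5 (3.378). Donor library 5 was low for H2-Eb1 (3607), H2-Ea-ps (1.201), Fcgr2b (458.5) and Klra2 (136.7).

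Donor library 2 was high for the hemoglobin genes Hbb-bs (49.06), Hba-a1 (32.52) and Hba-a2 (54.1) and low for Hcar2 (56.59). Donor library 3 was high for Arg1 (170.1), Ldha (383.8), Ifitm1 (62.99) and Gpr84 (46.1). Host library 2 was low for Ccdc80 (40.7) and high for Ifitm1 (3.601). Host library 3 was high for Gas6 (302.4). Host library 4 was high for Sall3 (121.5) and Chil3 (3.291) and low for Lilra5 (13.96).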

How the results depend on the processing

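The numbers of genes called stayed within 1.5 times of 2533 higher and 2519 lower in every alternative except the test against a 2-fold change, which called 493 and 476. With 1 of the 10 libraries left out they ranged from 2151 to 2777 higher and from 2229 to 2642 lower. Among genes called with all libraries, the number with no overlap then ranged from 3647 to 4098, and leaving a library out cannot lower it. With the replicate block from the description numbers, the numbers of genes called were 2501 and 2253, and 2473 and 2371 on GC-corrected values. A block on the title numbers, whose pairs correlated at 0.39, 0.17, -0.02 and 0.02, gave 2370 and 2217. Of 175 called genes named here, 162 kept their call in every alternative other than the 2-fold test, and no named gene reversed. A call was lost by 6 with 1 library left out, by 4 with the description block (Jak1 as given above, and Ccl17, F10 and Ifi205) and by 2 with the title block. Apart from those genes the description block ended no call of a named gene, except Tgfbr1 on GC-corrected values. Of the 175, the log2 fold change moved by over 1.5 times for 72 at a pseudocount of 5, 34 at a pseudocount of 0.1, 15 without donor libraries 1 and 5, 10 with the title block, 5 with library weights (Ccr6 -4.69 and H2-Ea-ps -3.72 among them), 2 under quantile normalisation (Apoe and Cst3) and 2 with the description block (Plac8, and Cd300e at 3.64 in place of 4.47). Of the genes named as not called, 18 passed in some alternative. The call of Stab2 was lost without host library 1, 2 or 3. Its log2 fold change was -4.09 without host library 4. At the estimated depths 3 reads correspond to normalised counts of 0.0901 to 0.3404 in the 10 libraries, so values near or below these, such as Il10 in most host libraries, are at the limit of what the depth can show.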

Other observations

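Ion channels of microglia and macrophages differed in both directions: of 31 tested, 9 were called higher in donor macrophages and 12 lower, with a median log2 fold change of -0.18. Kcnn4, a calcium-activated potassium channel, read 29.7 to 86.8 (median 43.4) in the donor libraries and 9.56, 3.35, 7.84 and 6.35 in host libraries 1 to 4, a log2 fold change of 2.74 ± 0.22 (standard error, adjusted p = 7.39e-07). Trpv4, a cation channel, was higher at 2.52 ± 0.36 (standard error, adjusted p = 0.000113), and Cacna1a, a voltage-gated calcium channel, was lower at -3.02 ± 0.36 (standard error, adjusted p = 2.66e-05). Of 32 solute carriers, 6 were called higher and 14 lower. Slc1a5, a glutamine transporter, read 69 to 137 (median 94.1) in the donor libraries and 15.9, 5.69, 8.99 and 13.2 in host libraries 1 to 4, a log2 fold change of 3.18 ± 0.24 (standard error, adjusted p = 4.67e-07). Slc1a3, a glutamate transporter, was lower at -3.63 ± 0.22 (standard error, adjusted p = 7.81e-08).

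Of 25 genes whose activity is known to vary between inbred strains, 5 were called higher and 9 lower. Gpnmb, a glycoprotein of lysosomes, was higher at 3.53 ± 0.35 (standard error, adjusted p = 4.45e-06), and Wdfy1, an endosomal adaptor, and H2-Q4, a class I gene, were lower at -1.56 ± 0.20 (standard error, adjusted p = 4.1e-05) and -2.34 ± 0.51 (standard error, adjusted p = 0.00262). Without donor libraries 1 and 5 the log2 fold change of H2-Q4 was -3.05. The strains are not given, and their part in these values was not tested.

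TCD host library 1 was compared with the other TCD host libraries on genes whose nearest donor and GVHD host libraries lay at least 4-fold apart, on the value + 1 scale. Of 123 such genes lower in donor macrophages, TCD host library 1 lay in or below the donor range for 12, TCD host library 2 for 1 and TCD host library 3 for 0. On chromosome 17 lay 5 of those 12, among them Ccr6, H2-Ea-ps and Msh5. How many of the 123 genes lie on chromosome 17 was not counted, so there is no share to read that number against. Ccdc80 on chromosome 16 and Trim21 on chromosome 7 were also among the 12. Of 142 such genes higher in donor macrophages it lay in or above the donor range for 2, Cbr2 and F13a1. These genes were chosen after their values were seen.

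Of 10 listed genes of the Ifi200 cluster on chromosome 1, also chosen after their values were seen, 8 were called higher, 1 lower and 1 neither. Among the 8 the call of Ifi205 was lost in many alternatives, such as within API197 alone (adjusted p = 0.108). The 1 called lower was Ifi202b, with 0.51 to 2.4 (median 1.02) in the donor libraries and 44.1, 31.9, 16.1 and 28.6 in host libraries 1 to 4 and a log2 fold change of -3.81 ± 0.54 (standard error, adjusted p = 0.000112). TCD host libraries 1 to 3 held 0.0433, 12.5 and 6.88. Aim2 was not called, at -0.11 (adjusted p = 0.468).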
